A study of Mus musculus with 6 samples.

Results

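The wide shared peaks are places where 2 libraries of a BMAL1 chromatin immunoprecipitation sequencing (ChIP-seq) study of mouse retina, 1 of each genotype, both listed a peak of at least 700 bp. They were chosen by width alone: a Control 1 peak of at least 700 bp was kept when it overlapped by at least 1 bp a Bmal1 CKO 2 peak of at least 700 bp, and dropped when it overlapped any peak of the other 4 libraries. This gave 3300 peaks of the 179475 in Control 1 (1.84%), out of 320474 peaks in all 6 lists. Control 1 held 8073 peaks of that width and Bmal1 CKO 2 held 4630. Before the last step there were 3454, of which 154 overlapped a peak of another library. The 3300 peaks lay over 3307 wide peaks of Bmal1 CKO 2, since 12 of those spanned 2 or more of the Control 1 peaks and 19 of the Control 1 peaks spanned 2 or more of them.

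The libraries came from 2 groups of mice with 3 libraries each: wild type, called Control 1 to 3, and Bmal1 CKO 1 to 3, in which Bmal1 was conditionally deleted. The chromatin was recovered with a rabbit anti-BMAL1 antibody. All mice were of strain C57BL/6, had no external treatment and were weaned at postnatal day 20. The Cre driver, the cells it acted in, the age and hour of collection and any pooling of mice are not given in the labels. A peak list holds no level of Bmal1 and no marker of retina, so it can check neither the genotype nor the tissue. Lists were tied to libraries by the series record alone, and the number that a list carries in its name is often not the replicate number of its library.

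BMAL1 is a transcription factor of the circadian clock. Together with CLOCK it binds the E-box CACGTG in promoters and enhancers of clock genes such as the Per and Cry genes, whose products feed back on the pair. ChIP-seq recovers DNA attached to the antibody's target, and a peak is a stretch where the recovered fragments exceed the local background. A sequence-specific factor usually gives a narrow peak, whereas signal spread over open chromatin, as at promoters rich in CG dinucleotides (CpG islands), gives a wide one.

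A summit is the base of a peak with the most fragments, and positions are those of the Control 1 summit unless the other library is named. Gene starts, with strand, came from a RefSeq promoter table (GRCm38.p6, the same coordinates as mm10) that lists 21263 starts of 17492 protein-coding genes and is not complete. Gene ends came from a RefSeq gene table without strand, with 21900 protein-coding genes. Neither gives exons, so exons, introns and UTRs were not told apart here.

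The promoters under the widest of these peaks are shown because they carry what most of the set shares, a gene start with many CG dinucleotides. Each sequence is the 250 bases before a RefSeq start, read 5′ to 3′ on the strand of the gene, and lay wholly inside both the Control 1 and the Bmal1 CKO 2 peak. Capitals mark each CG.
Hnrnpa2b1 (chr6:51469846-51470095, minus strand): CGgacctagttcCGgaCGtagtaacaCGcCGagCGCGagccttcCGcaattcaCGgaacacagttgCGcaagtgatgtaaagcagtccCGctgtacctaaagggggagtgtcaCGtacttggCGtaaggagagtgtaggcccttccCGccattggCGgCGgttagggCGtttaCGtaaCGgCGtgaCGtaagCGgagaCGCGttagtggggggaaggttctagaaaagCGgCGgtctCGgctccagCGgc
Cbx3 (chr6:51470366-51470615, plus strand): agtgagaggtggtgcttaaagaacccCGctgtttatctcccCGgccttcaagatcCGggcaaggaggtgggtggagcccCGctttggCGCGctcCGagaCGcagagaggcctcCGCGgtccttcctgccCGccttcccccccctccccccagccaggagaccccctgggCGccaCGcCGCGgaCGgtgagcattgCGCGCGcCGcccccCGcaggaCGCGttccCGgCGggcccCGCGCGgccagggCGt
Lcorl (chr5:45856553-45856802, minus strand): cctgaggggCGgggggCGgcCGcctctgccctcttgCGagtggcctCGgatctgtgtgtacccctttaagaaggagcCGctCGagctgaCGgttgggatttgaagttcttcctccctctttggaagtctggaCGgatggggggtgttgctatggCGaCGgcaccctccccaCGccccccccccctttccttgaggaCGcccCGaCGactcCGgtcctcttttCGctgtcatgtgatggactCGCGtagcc
Nudt6 (chr3:37419597-37419846, minus strand): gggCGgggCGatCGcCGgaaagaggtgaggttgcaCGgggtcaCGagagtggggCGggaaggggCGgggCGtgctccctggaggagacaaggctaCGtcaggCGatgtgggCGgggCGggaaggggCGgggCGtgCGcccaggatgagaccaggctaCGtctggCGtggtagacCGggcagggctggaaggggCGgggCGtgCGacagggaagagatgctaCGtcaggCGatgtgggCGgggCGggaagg
Spata5 (chr3:37419700-37419949, plus strand): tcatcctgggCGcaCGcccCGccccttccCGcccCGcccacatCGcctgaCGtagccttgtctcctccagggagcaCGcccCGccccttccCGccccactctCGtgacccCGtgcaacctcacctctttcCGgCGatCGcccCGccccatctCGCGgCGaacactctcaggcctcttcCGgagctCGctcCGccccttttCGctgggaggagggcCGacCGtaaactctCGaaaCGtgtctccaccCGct
Septin10 (chr10:59221501-59221750, minus strand): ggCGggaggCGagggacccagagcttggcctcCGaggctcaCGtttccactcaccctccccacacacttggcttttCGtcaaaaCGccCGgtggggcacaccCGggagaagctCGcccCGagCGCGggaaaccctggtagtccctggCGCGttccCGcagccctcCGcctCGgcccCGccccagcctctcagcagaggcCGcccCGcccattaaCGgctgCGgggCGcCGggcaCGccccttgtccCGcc

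The first and second are the divergent promoters of 1 peak. Hnrnpa2b1 encodes an RNA-binding protein of the hnRNP family and Cbx3 encodes a heterochromatin protein, and their nearest starts lay 722 bp apart. Their windows held 28 and 29 CG dinucleotides. Nudt6, a Nudix hydrolase gene, and Spata5, the gene of an AAA ATPase, likewise shared a peak, with starts 354 bp apart, so their printed windows overlap on opposite strands. They held 26 and 28. Septin10, which encodes a cytoskeletal GTPase, had 26, and Lcorl, which encodes a transcription factor, had 19.

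None of these 6 windows held an E-box. The widest peaks with CACGTG in the printed window, 1 copy each and in capitals below, were those over Septin7 and over Slc16a1, the gene of a monocarboxylate transporter.
Septin7 (chr9:25251741-25251990, plus strand): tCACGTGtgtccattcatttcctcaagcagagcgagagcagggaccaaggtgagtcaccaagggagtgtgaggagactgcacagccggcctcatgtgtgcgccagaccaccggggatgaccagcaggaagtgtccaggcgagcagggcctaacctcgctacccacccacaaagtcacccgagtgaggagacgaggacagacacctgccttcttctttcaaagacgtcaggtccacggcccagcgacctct
Slc16a1 (chr3:104638414-104638663, plus strand): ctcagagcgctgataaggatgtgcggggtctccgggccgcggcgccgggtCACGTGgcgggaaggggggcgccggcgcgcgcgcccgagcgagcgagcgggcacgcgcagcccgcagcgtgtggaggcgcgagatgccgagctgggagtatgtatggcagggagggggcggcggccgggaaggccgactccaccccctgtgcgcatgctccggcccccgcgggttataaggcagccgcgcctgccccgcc

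The 2 libraries behind these peaks were the 2 with long lists. Besides the 179475 peaks of Control 1 there were 138254 in Bmal1 CKO 2, and the other 4 lists held 372 to 1444. Of these peaks 3.35% (Bmal1 CKO 2) to 6.72% (Control 3) were at least 700 bp wide. The files give no read totals. The deposited fold and p-value of a peak can be solved for the fragments stacked at its summit and the background there, and the lowest repeated background stands in for depth. Control 1 had 3.46 fragments per base and Bmal1 CKO 2 had 5.83, against 2.78 for Bmal1 CKO 1 and 0.560 to 0.852 for the other 3 libraries. Since 1 library of each genotype defines the set, nothing below has a replicate check. All values are descriptions of these 2 libraries without a test, and differences between them cannot be told apart from depth.

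Width itself chose the peaks and is given only as a description. In Control 1 the median width was 967 bp (middle 50% of peaks 834 to 1176 bp, widest 2636 bp). In Bmal1 CKO 2 it was 912 bp (798 to 1080 bp, widest 2295 bp). A peak was wider in Bmal1 CKO 2 in 1377 of 3300 cases (41.7%), and the median ratio of the widths was 0.973. Both intervals shared a median of 85.2% of the bases they covered together, against 65.6% for the 62976 narrower shared peaks, which were under 700 bp in both lists and met the same exclusion. This too depends on the choice by width. Wide peaks whose partner was under 700 bp were set apart, and pairs wide in only 1 list shared a median of 44.1%. An edge shift of the same size is also a smaller part of a longer interval. The summits of a pair were a median of 179 bp apart, against 64 bp in the narrower pairs, whose width leaves less room between summits.

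**Figure D1:**
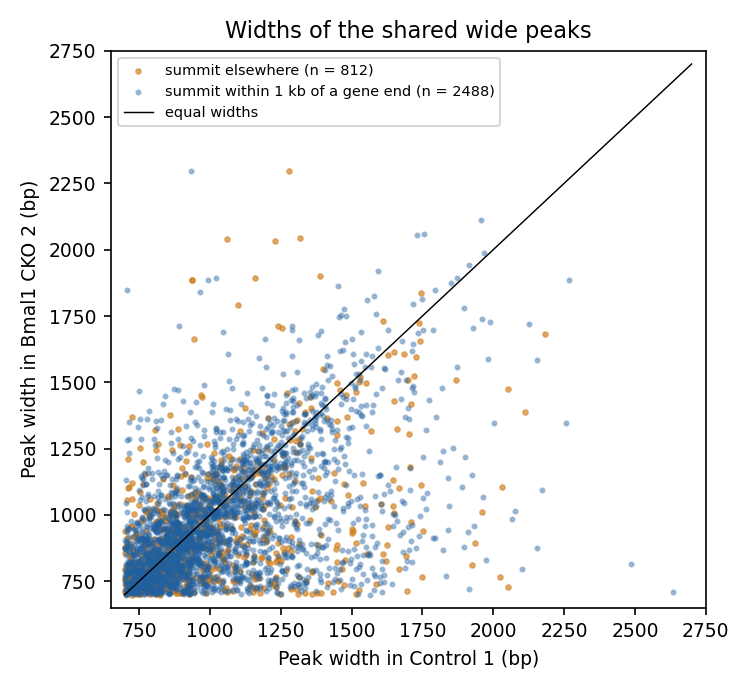
Each point is 1 of the 3300 wide shared peaks, with its width in Control 1 on the x axis and in Bmal1 CKO 2 on the y axis, both in bp. Blue points have a summit within 1 kb of a protein-coding gene end (2488) and orange points do not. Both kinds lie along the line of equal widths, from the limit of 700 bp up to 2636 bp in Control 1 and 2295 bp in Bmal1 CKO 2.

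The limit cuts through a continuous range. Just inside it lay peaks at Mark3, a kinase gene, with 700 bp in Control 1 and 753 bp in Bmal1 CKO 2, at Chchd1 with 700 and 874 bp, and at Szrd1 with 704 and 700 bp. Just outside lay Spag9 with 1209 and 699 bp, Rnf2, which encodes a Polycomb ubiquitin ligase, with 1140 and 699 bp, and the receptor gene Gpr6 with 934 and 699 bp. All 6 had a summit within 1 kb of a gene end.

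Fold and q-value come from the same peaks as the width and are also only descriptive. The deposited fold over local background had a median of 5.08 (Control 1) and 3.65 (Bmal1 CKO 2), against 3.81 and 3.07 in the narrower pairs. The summit held a median of 35 fragments over a background of 5.94 in Control 1 and 36 over 9.10 in Bmal1 CKO 2. In the narrower pairs these were 20 over 3.78 and 24 over 6.6. The fold was higher in Bmal1 CKO 2 for only 67 of the 3300 peaks (2.03%) and for 12.9% of the narrower pairs. Over all places the wide peaks thus stood on a higher local background than the narrower ones. Among peaks at a gene end or listed start the order was the other way, with a median of 6.04 for wide and 6.28 for narrower peaks in Control 1 and 9.26 and 9.72 in Bmal1 CKO 2. Among peaks at neither it was 5.02 and 3.58 in Control 1 and 7.68 and 6.32 in Bmal1 CKO 2. Whether this local background counted a peak's own fragments is not given, and their part in these differences was not tested.

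Position was not used by the rule, and most wide peaks lay at gene ends where most narrower ones did not. The summit lay within 1 kb of an end of a protein-coding gene for 2488 of 3300 (75.4%), inside a gene but farther from its ends for 542 (16.4%), and outside genes for 270 (8.18%). Of the narrower pairs 10.5% lay at a gene end, 38.3% inside a gene and 51.2% outside. The median distance to the nearest gene end was 312 bp for the wide peaks and 28749 bp for the narrower ones. Among all Control 1 peaks 10.5% lay at a gene end, the same as among the narrower pairs to the digits given.

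Where the table allowed the start to be told from the far end, the peak nearly always lay at the start. The start table does not cover chromosome 18, where 121 wide peaks lay. Of the 3179 on chromosomes with listed starts, 2317 (72.9%) had a summit within 1 kb of a protein-coding start, and 12 (0.377%) lay at the far end of a gene without a listed start nearby. In the narrower pairs 8.64% lay at a start and 1.25% at a far end alone. Another 56 wide peaks (1.76%) lay at the start of a long non-coding RNA gene only. A further 354, the 12 at far ends included, lay at a gene end of the gene table with no listed start within 1 kb. This left 452 wide peaks (14.2%) at neither, against 86.6% of the narrower pairs.

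The share at a start rose with width and showed no step at 700 bp. By the smaller of both widths, it was 6.11% from 200 to below 300 bp, 27.4% from 400 to below 500 bp, 56.7% from 600 to below 700 bp, 65.8% from 700 to below 800 bp and 79.0% from 900 to below 1000 bp. From 1200 to below 1500 bp it was 79.3%, and among the 59 peaks of 1500 bp or more it was 74.6%. Pairs that were wide in only 1 of both lists (5608) lay between, with 49.2% at a start. The gap between the width classes was present among peaks of like fold. At a Control 1 fold of 3 to 4, 69.5% of 433 wide peaks and 7.47% of 27098 narrower peaks lay at a start. At a fold of 5 to 6 the shares were 73.9% of 1032 and 9.38% of 5349, and at 6 or more they were 70.9% of 649 and 14.3% of 2489.

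**Figure D2:**
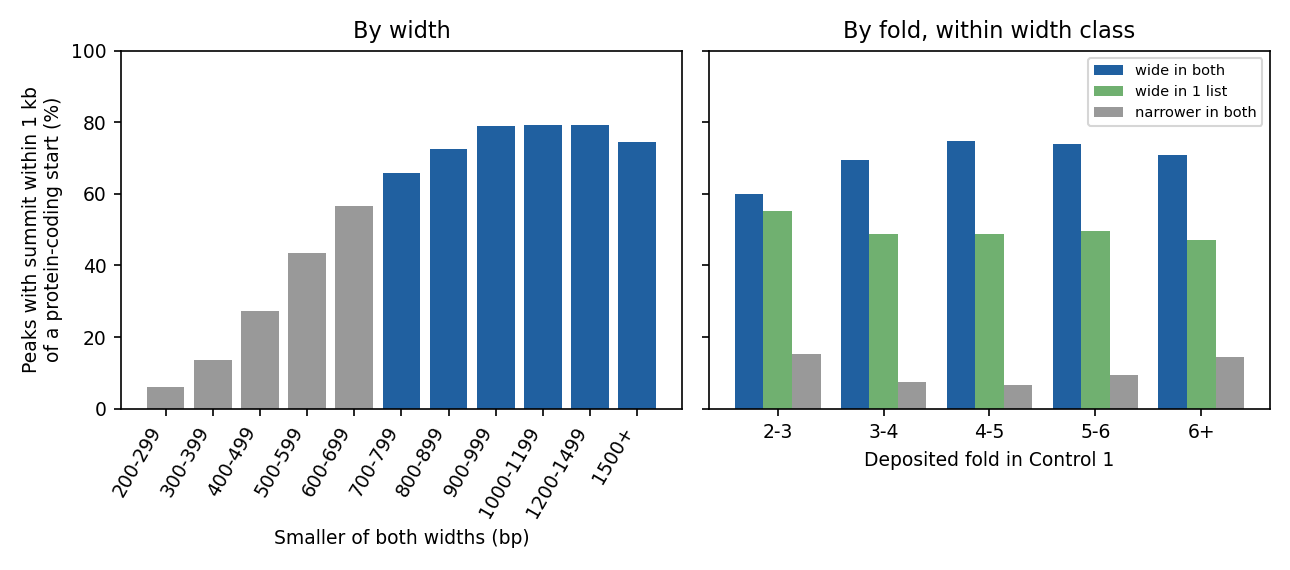
Bars give the percentage of shared peaks with a summit within 1 kb of a protein-coding start. On the left the x axis is the smaller of both widths in bp (grey under 700 bp, blue from 700 bp), and the share rises from 6.11% to about 79.3%. On the right peaks are split by deposited fold in Control 1 and by width class, and the blue bars (wide in both lists) stay between 60% and 74.9% while the grey bars (narrower in both) stay between 6.46% and 15.4%.

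The wide peaks extended across the start and farther into the gene than away from it. For the 2317 at a start, the median upstream edge lay at -369 bp in Control 1 and -370 bp in Bmal1 CKO 2, where negative positions lie before the start. The median downstream edge lay 623 bp inside the gene in Control 1 and 584 bp in Bmal1 CKO 2. The start itself was covered by 96.0% of them in Control 1 and by 92.8% in Bmal1 CKO 2. Both libraries were measured from the start nearest to the Control 1 summit, which had to lie within 1 kb. That choice favours Control 1, so differences between the libraries in closeness to the start are not read here. The summit lay a median of 65 bp inside the gene in Control 1 and 33 bp inside it in Bmal1 CKO 2, and on the gene's side of the start for 63.8% and 55.8%. Without the peaks that hold a protein-coding or long non-coding RNA start on the opposite strand, 1763 remained, with median edges at -330 and 641 bp in Control 1, so the lean into the gene was still there. It was not particular to the wide peaks. In Control 1, 13.4% of the narrower peaks at a start covered -300 bp and 46.2% covered 300 bp. For the wide peaks these shares were 61.7% and 92.2%.

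**Figure D3:**
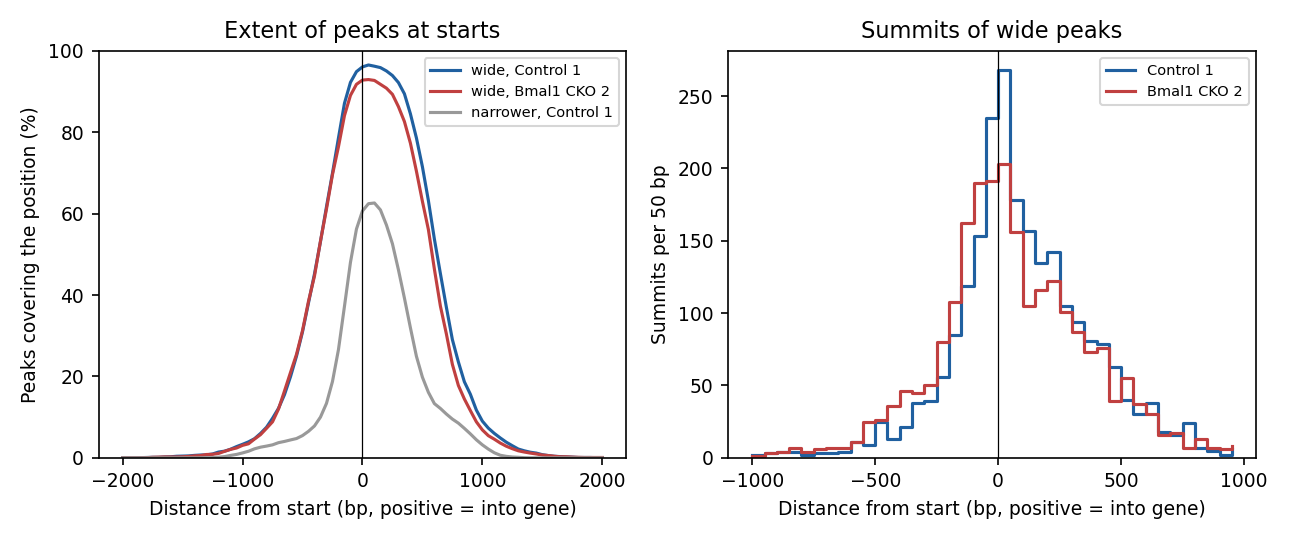
The x axes give distance in bp from the protein-coding start nearest to the Control 1 summit, positive into the gene, for both libraries. On the left, lines give the percentage of peaks covering each position. The coloured lines show the 2317 wide peaks at a start in Control 1 (blue) and Bmal1 CKO 2 (red). The grey line shows the 5233 narrower ones in Control 1. Both coloured lines and the grey line reach farther to the right of the start than to the left. On the right, steps give the number of wide-peak summits per 50 bp, highest next to the start with 268 in Control 1 and 203 in Bmal1 CKO 2 in the first 50 bp of the gene.

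Some of the wide peaks held starts of genes on opposite strands, and whether these starts pointed apart was not checked. Of the 2235 wide peaks with a protein-coding start inside the Control 1 interval, 319 (14.3%) held starts of different genes on opposite strands. Of the 3177 narrower peaks with a start inside it was 3.40%, but a narrower interval has less room for another start. Peaks with starts of 2 or more genes had a median width of 1057 bp in Control 1, those with 1 gene 975 bp and those with none 914 bp. In Bmal1 CKO 2 the medians were 1018, 916 and 874 bp. The median folds in Control 1 were 5.17, 5.10 and 5, in the same order.

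The widest peaks at gene ends, taken by the smaller of both widths, showed this layout. The peak over Hnrnpa2b1 and Cbx3 (chr6:51469297-51471265) measured 1969 bp in Control 1 and 1989 bp in Bmal1 CKO 2, with folds of 4.41 and 3.42. Lcorl (chr5:45856203-45858158) had 1956 and 2112 bp and folds of 6.16 and 4.44. The peak over Nudt6 and Spata5 (chr3:37419021-37420934) had 1914 and 1944 bp. The peak over Septin10 and Sowahc (chr10:59221129-59223394) had 2266 and 1884 bp, and their starts lay 422 bp apart. Zfc3h1, which encodes a cofactor of the nuclear RNA exosome, shared a peak with Thap2 (chr10:115384136-115386008), with 1873 and 1894 bp. Trip12, a ubiquitin ligase gene, shared one with Fbxo36 (chr1:84838447-84840405), with 1959 and 1740 bp. All of these peaks but that over Lcorl held protein-coding starts on both strands.

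The other 9 of the 15 widest at a gene end mostly held the start of 1 gene. Smarca5 (chr8:80738285-80740134), the gene of a chromatin remodelling ATPase, had 1850 and 1873 bp, 39 and 44 summit fragments and folds of 4.39 and 4.14. Tmem263 (chr10:85102048-85103841), whose peak also held the start of Fhl4 on the other strand, had 1794 and 1848 bp, and Nfe2l2, the gene of the oxidative stress factor NRF2 (chr2:75703453-75705349), had 1897 and 1780 bp. Sp4 (chr12:118300969-118302724), which encodes a zinc finger factor of neurons, had 1756 and 2059 bp. The small GTPase genes Arf6 (chr12:69371605-69373351) and Rhob (chr12:8498429-8500418) had 1747 and 1816 bp and 1990 and 1729 bp. Arhgap5, which encodes a GTPase-activating protein (chr12:52503387-52505116), had 1730 and 2057 bp. Atp2b1, the gene of a calcium pump of the plasma membrane (chr10:98913763-98915889), had 2127 and 1719 bp, and Septin7 (chr9:25251680-25253396) had 1717 and 1797 bp. Folds across all 15 lay between 3.68 and 6.48 in Control 1 and between 2.73 and 4.79 in Bmal1 CKO 2.

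Many wide peaks inside genes lay at a start too. Of the 503 on chromosomes with listed starts, 273 (54.3%) were within 1 kb of an inner protein-coding start, against 3.73% of the narrower pairs inside genes. The host genes of the 503 had a median length of 70374 bp, where all protein-coding genes had 17146 bp. Longer genes have more room away from their ends. No host length is given here for the narrower pairs, so this is no trait of the wide peaks. Among the 10 widest were Esyt2, which encodes an extended synaptotagmin (chr12:116280491-116282229, 1739 and 1722 bp), and the RNA-binding protein genes Hnrnpu (chr1:178336440-178338090, 1651 and 1614 bp) and Hnrnph1 (chr11:50376868-50378551, 1684 and 1605 bp). Magi2, a synaptic scaffold gene (chr5:19226265-19227876), had 1612 and 1733 bp, Dnaaf2 (chr12:69196748-69198473) had 1726 and 1595 bp, and Kdm6a, the gene of a histone demethylase (chrX:18161788-18163654), had 1867 and 1510 bp. These 6 lay at an inner start. 9430078G10Rik (chr19:4396442-4398625, 2184 and 1682 bp) had no listed start within 1 kb. Impact (chr18:12972850-12974570, 1721 and 1525 bp) and Trim36 (chr18:46198152-46199681, 1530 and 1522 bp) lie on chromosome 18, where starts were not used here.

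The wide peaks away from genes were fewer and slightly narrower. The 263 outside genes on chromosomes with listed starts had a median width of 875 bp in Control 1, against 979 bp at gene ends, and 28 of them (10.6%) lay at the start of a long non-coding RNA gene, against 2.04% of the narrower pairs outside genes. The 5 widest lay at chr8:5639520-5641259 (1740 and 1655 bp), chr14:61647818-61649446 (1629 and 1603 bp), chr12:10961492-10963019 (1528 and 1500 bp), chr12:93927768-93929417 (1650 and 1430 bp) and chr12:20232772-20234481 (1710 and 1420 bp). Their nearest protein-coding gene end was 534618, 35193, 127889, 1033192 and 6616 bp from the summit. The last of them differed from the rest in its stacked fragments, with 95 over a background of 25.4 in Control 1 and 99 over 32.2 in Bmal1 CKO 2. The others had 29 to 34 fragments in Control 1 and 29 to 44 in Bmal1 CKO 2. The 452 wide peaks at no gene end or listed start included 217 (48.0%) inside a gene. Over all 452, the fold had medians of 5.10 (Control 1) and 3.70 (Bmal1 CKO 2), close to the 5.08 and 3.65 of the whole set.

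The peaks with the highest −log10 q-values were not the widest. By the lower of both −log10 q-values, the first lay over the starts of the predicted genes Gm3448 and Gm3435 (chr17:15009745-15010572), with 65.4 in Control 1 and 60.7 in Bmal1 CKO 2, 105 and 124 stacked fragments and widths of 828 and 972 bp. Next came a peak inside Maml3, the gene of a Notch coactivator (chr3:51765959-51766865), with 44.5 and 35.4, one at the start of Srp54c, which encodes a signal recognition particle subunit (chr12:55229732-55230749), with 35.3 and 31.1, and one at Desi2 (chr1:178187332-178188465), with 35.5 and 30.4. The other 6 of these 10 lay at gene ends of Tmem67, Gm36079 and Thoc1, and outside genes nearest to Snx6, Gm40469 and Itln1. Their widths in Control 1 were 737 to 1011 bp. Whether reads at genes with similar copies, such as the predicted genes here, were placed at 1 of several copies was not tested.

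Promoters under the wide peaks had the highest GC content of the classes compared. Of the 21263 protein-coding promoters (250 bases before to 50 after a start), 2954 overlapped a wide shared peak, 4102 only a narrower one and 11428 no shared peak. The median GC content was 64.7%, 59.0% and 50%, and 56.3% over all promoters. A promoter held a median of 26 CG dinucleotides under the wide peaks, 18 under the narrower and 4 under none. The ratio of CG observed to that expected from the C and G content had medians of 0.848, 0.722 and 0.263. Promoters under pairs wide in only 1 list (2779) were nearly like those under the wide peaks, with 64.3% GC, 24 CG and a ratio of 0.810. Within the wide set the median number of CG was 24 where the smaller width was below 800 bp and 28 from 1200 bp on.

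Read the other way, promoters with few CG rarely had a wide shared peak, while most of those with many CG had none either. The promoters were ordered by their number of CG and divided into 10 groups of equal size. In the first group (0 to 1 CG) 0.141% had a wide shared peak, in the fifth (8 to 13) 7.43%, in the eighth (22 to 27) 29.9% and in the last (34 to 67) 30.1%. Narrower pairs were most frequent in the middle, with 35% in the group with 13 to 18 CG and 18.1% in the last. Even in the last group 25.1% of promoters had no shared peak.

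**Figure D4:**
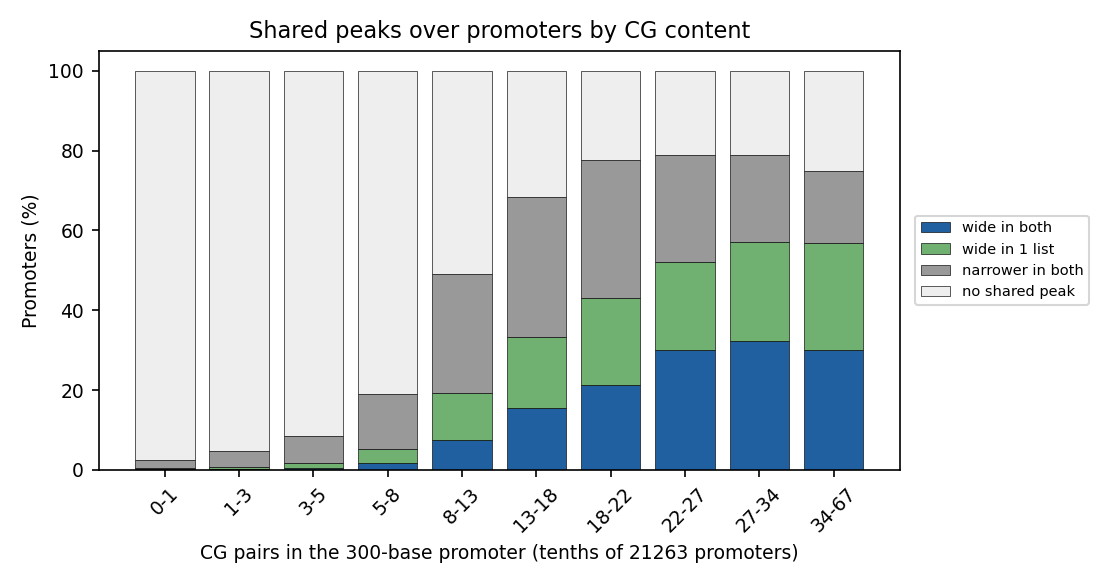
Bars split 21263 protein-coding promoters into 10 groups of equal size by the number of CG dinucleotides in 300 bases (x axis) and give the percentage of promoters in each class of shared peak (y axis). Blue, wide in both lists, rises from 0.141% to 30.1% and levels off from the eighth group, while grey, narrower in both, is highest in the sixth with 35%.

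Motif shares were higher under wide peaks than over all promoters for each motif with CG named here. Except for NRF1, which allows any base at 1 place, each motif was searched as exact letters, on both strands of the 300 bases, and a match is not a binding site. The E-box CACGTG was present in 11.5% of promoters under wide peaks, 10.9% under narrower ones, 5.23% under none and 7.84% of all. Among promoters of like CG number the order was mixed. With 8 to 13 CG, 10.8% of those under wide peaks and 8.79% of the others had an E-box. The wide peaks had the lower share in the next 4 groups, for example 10.2% and 12.3% with 22 to 27 CG, and the higher share in the last, with 15.2% and 10.1%. The first 4 groups held too few promoters under wide peaks to compare, 3 to 34 each. The GC box GGGCGG was in 74.5% of promoters under wide peaks and 46.2% of all, the ETS motif CCGGAAG in 22.3% and 11.6%, the NRF1 motif in 16.3% and 6.38%, and the cyclic AMP response element TGACGTCA in 4.06% and 2.23%. The CCAAT box (CCAAT), which has no CG, was at 40.0% and 38.2%, and the TATA motif TATAAA, also without CG, was at 3.86% and 12.6%. Promoters under the other shared peaks were also above all promoters for each motif with CG. Under narrower peaks the GC box, ETS, NRF1, cyclic AMP and TATA motifs were at 60.8%, 19.8%, 9.31%, 3.56% and 8.12%. Under pairs wide in only 1 list they were at 73.9%, 18.1%, 10.9%, 3.17% and 5.11%. None of these motifs contains another, although matches can overlap.

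The genes with a wide shared peak at an end were longer than the others. They numbered 2953 of 21900 protein-coding genes (13.5%), where 28.8% had a narrower shared peak at an end. Their median length was 32968 bp, against 15399 bp for the other genes on chromosomes with such peaks. No length is given here for genes with a narrower shared peak only, so length is not shown to be particular to wide peaks. Of the 10 families examined, 4 lay above 13.5%, among them those of protein synthesis and breakdown. Of 75 mitochondrial ribosomal protein genes 17 (22.7%) had one, of 39 proteasome subunit genes 8 (20.5%), of 85 cytosolic ribosomal protein genes 17 (20%) and of 367 Zfp zinc finger genes 63 (17.2%). Examples are Mrpl9, Mrps14, Psma1, Psmd11, Rpl5, Rps6 and Zfp143. Families of chemosensory receptors, keratins, Hox factors and histones lay below, with 0 of 1110 olfactory receptor genes, 0 of 353 vomeronasal receptor genes, 0 of 49 keratin genes, 0 of 39 Hox genes and 2 of 67 histone genes (2.99%). A narrower shared peak and no wide one lay at an end of 27.5% of all protein-coding genes. This was so for 36 histone genes (53.7%), 19 clustered protocadherin genes (33.3%), 14 keratin genes (28.6%), 7 Hox genes (17.9%), 105 olfactory receptor genes (9.46%) and 8 vomeronasal receptor genes (2.27%). The 4 families above 13.5% for wide peaks also lay above 27.5% for a narrower one only. They had 50.7% (mitochondrial ribosomal), 51.3% (proteasome), 42.4% (cytosolic ribosomal) and 43.9% (Zfp), so their higher shares were not particular to wide peaks.

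**Figure D5:**
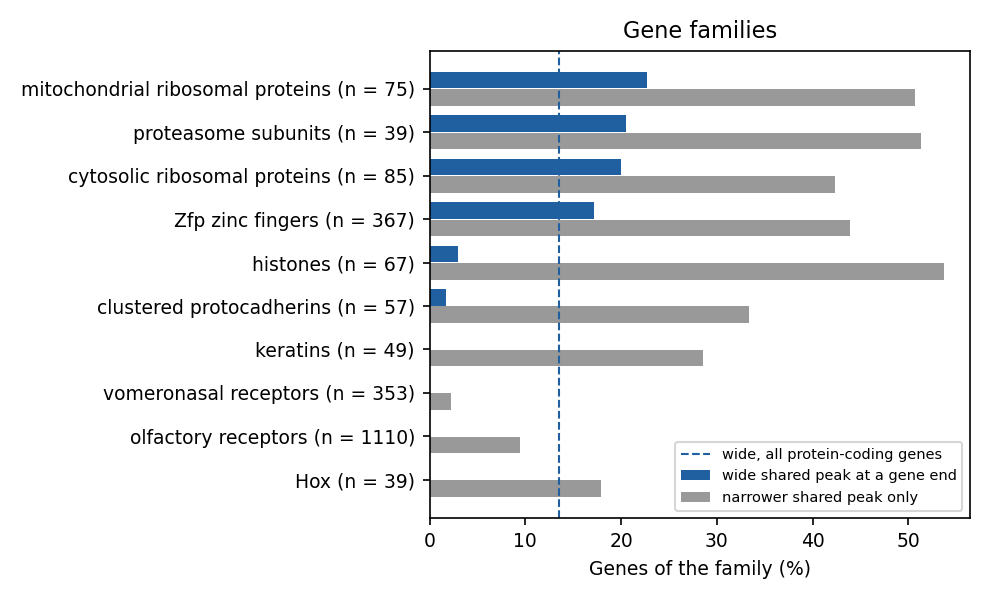
For 10 gene families (number of genes in brackets), blue bars give the percentage of genes with a wide shared peak at an end and grey bars the percentage with a narrower one and no wide one. The dashed line marks 13.5%, the share of all protein-coding genes with a wide one. The blue bars of 4 families lie to its right, up to 22.7%, and those of the other 6 lie to its left, from 0 to 2.99%.

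Genes that mark retinal cell types rarely had one. Of the 95 genes in 6 lists of cone, rod, bipolar and interneuron, Müller glia, ganglion cell and progenitor genes, 2 (2.11%) had a wide shared peak at an end, where all protein-coding genes had 13.5%, and 32 (33.7%) had a narrower one only, where all protein-coding genes had 27.5%. The 2 were Six6, an eye field transcription factor gene, and Vim, the vimentin gene. None of 20 rod genes, 16 cone genes, 15 ganglion cell genes or 15 bipolar and interneuron genes had one at an end, nor had any of 15 microglia and vessel genes. Among 20 housekeeping genes 4 had one (20%: Eef1a1, Hprt, Psmb2 and Sdha), and of 20 genes that retina does not express 1 had one (Lor). With lists this short, a share of 13.5% amounts to few genes.

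Of 22 core clock and output genes 3 (13.6%) had a wide shared peak at an end, close to the 13.5% over all protein-coding genes, and 2 had one inside the gene. Per3, a period repressor gene, had a peak over its start and that of Gm38529 (chr4:151044052-151045190), 1139 bp wide in Control 1 and 1071 bp in Bmal1 CKO 2, with folds of 5.05 and 3.27. Cry1, a cryptochrome repressor gene, had one over its start (chr10:85184257-85185554), with the summit at 619 bp in Control 1 and at -186 bp in Bmal1 CKO 2, widths of 1298 and 731 bp and folds of 4.63 and 3.15. Rorb, the gene of a nuclear receptor needed in photoreceptor development, had one with the summit 568 bp inside its start in Control 1 and 814 bp inside it in Bmal1 CKO 2 (chr19:19110026-19110932), with widths of 907 and 719 bp. Clock, the gene of the partner of BMAL1, had one whose Control 1 interval held an inner start (chr5:76303621-76305323). The listed start nearest to the Control 1 summit was another inner start of Clock, which neither peak covered. From that start the summit lay at -341 bp in Control 1 and -1287 bp in Bmal1 CKO 2. The Bmal1 CKO 2 summit lay within 1 kb of an annotated end of Clock, and the Control 1 summit, used for placing, did not. The Clock peak had widths of 1703 and 1307 bp, 36 and 31 fragments and folds of 5.35 and 3.37. Rora had one 97141 bp from its nearest end (chr9:69289353-69291375), with 2023 and 768 bp. All 5 were wider in Control 1 than in Bmal1 CKO 2, as were most of the wide shared peaks. Of 15 thyroid hormone genes none had one at an end by the Control 1 summit. Thrb, the receptor gene needed for M opsin in cones, had one inside the gene over an inner start (chr14:17660118-17661532). From the start nearest to the Control 1 summit, the summit lay at 179 bp in Control 1 and -839 bp in Bmal1 CKO 2. The widths were 1415 and 1567 bp and the folds 4.13 and 3.39. The Bmal1 CKO 2 summit lay within 1 kb of an annotated end of Thrb.

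Most wide shared peaks stood alone. The nearest other one was a median of 152408 bp away, and 18.2% had another within 50 kb. Since narrower pairs are more numerous (91.3% had another of their kind within 50 kb), the distance to a wide peak was also measured from them: 15.2% of all narrower pairs, and 20.2% of those at a gene start, had a wide shared peak within 50 kb. The share among the wide peaks thus lay between these values. Joined across gaps of at most 50 kb, they formed 2701 singles, 240 runs of 2 and 36 runs of 3 or more, which held 119 peaks.

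The run with the most peaks lay in the protocadherin alpha cluster, whose variable first exons each have their own promoter and encode adhesion molecules of neurons. It held 6 wide shared peaks of 867 to 1253 bp in Control 1 (chr18:36920929-37022526). None of their summits lay within 1 kb of an annotated gene end. Starts on chromosome 18 were not listed, so whether these peaks lay at promoters was not tested. Of the 11 genes with 4 or more wide peaks, 10 were gene models of this region: Gm37013 with 12, Gm38666 and Gm38667 with 11 each, Pcdha1 to Pcdha5 with 5 each, and Pcdha6 and Pcdha7 with 4 each. The other was Dock3, which encodes a guanine nucleotide exchange factor of neurons, on chromosome 9 with 4. The protocadherin models overlap, so they count the same peaks repeatedly. Of the 57 clustered protocadherin genes 1, Pcdhgc3, had a wide shared peak at an annotated end. In all, 3506 of 21900 protein-coding genes (16%) had a wide shared peak in the gene or within 1 kb. On the chromosomes with such peaks 3395 genes had 1, 92 had 2 and 8 had 3.

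The other runs named here lay over neighbouring genes. A run of 5 on chromosome 4 (chr4:155563363-155705861) had summits at ends of Cdk11b, Mib2, Slc35e2 and Ssu72. Runs of 4 spanned Rc3h2, Zbtb6, Zbtb26 and Rabgap1 (chr2:37422250-37452925), Tex30, Poglut2, Bivm and Ercc5 (chr1:44101511-44155274) and Fbxl20, Med1 and Cdk12 (chr11:98148949-98203567). In these runs 4, 3 and 4 of the 4 peaks lay at a listed start, and in the run of 5 it was 4.

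Chromosomes differed in how many of these peaks they held for their genes. There were 23.7 per 100 protein-coding genes on chromosome 18, 20.9 on chromosome 12 and 19.9 on chromosome 1, and 8.23 on chromosome 7, 6.94 on X and 0 on Y. Relative to all shared peaks outside the other 4 lists, the wide ones made up from 3.91% (chromosome 17) to 6.58% (chromosome 11) on the 20 chromosomes that held any.

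The 154 wide shared peaks that were dropped because a shorter list also held them lay elsewhere. Of the 148 on chromosomes with listed starts, 11 (7.43%) lay at a protein-coding start, where 72.9% of the kept ones did. Their median width was 909 bp in Control 1 and their median fold 5.86. Of the 154, 141 overlapped a peak of Bmal1 CKO 1, 94 of Bmal1 CKO 3, 81 of Control 2 and 71 of Control 3.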

How the data were processed

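ChIP-seq with a rabbit antibody against BMAL1 gave 3 libraries from retinas of wild-type mice and 3 from Bmal1 CKO mice, with 1 deposited peak list per library. Reads were handled with Trim Galore, Bowtie2 and MACS2 on build mm10, per the submitters' processing notes. Their versions and settings, and whether an input library was used, are not given in these sources. The deposited values per peak are a fold (ratio) over local background, a −log10 p-value, a −log10 q-value, and a score, which is 10 times the deposited −log10 q-value rounded down in each of the 6 lists. All are relative to the peak's own library.

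Overlaps, positions and promoter features were computed with Python 3.11.15, pandas 2.3.3 and numpy 2.4.6. Where a peak overlapped several, the widest partner was used. Summit fragments and background were solved from fold, with a pseudocount of 1, and a Poisson p-value; the deposited −log10 p-value was matched within 0.01 for 100% of shared peaks, and all 1000 simulated pairs were recovered. For depth, every peak of the short lists and every 60th peak of the long ones was read. The overlap and placement steps were tested on simulated data. RefSeq tables of GRCm38.p6 gave genes, starts and promoter sequences, and all 188 entries of the 11 gene lists were matched.

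The peak set and gene lists were chosen with earlier results of these data known. The start table, the grouping by CG number, most motifs and the family patterns were chosen with the files in hand; the histone pattern was rewritten after its first form matched no gene, and the proteasome pattern after it had matched Psmc3ip. Named peaks are the widest 15 at gene ends, 10 in gene bodies and 5 outside genes by the smaller of both widths, the 10 highest by the lower −log10 q-value, those at genes of the clock, thyroid hormone, cone and rod lists, the genes and runs with the most peaks, and the 3 on either side of the width limit. The values of 1 peak that this rule names are not reported here. Printed promoters are the first 6 wholly inside both peaks in order of width, and the first 2 others with CACGTG before the start. With 1 library per genotype no test was made.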

Additional observations from a re-analysis of the deposited data

How the results depend on the processing

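No paired analysis was possible because the results come from no test and 1 library of each genotype. Of 58 alternatives, 21 kept the value within its 95% exact binomial interval, or a count within 1.5 times, and 37 did not. These intervals cover counting error over peaks only.

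The number of wide shared peaks was 7790, 5068, 2192 and 888 at minimum widths of 500, 600, 800 and 1000 bp and 1743 at a Control 1 fold of at least 5. It was 3149 with 50% overlap of both peaks, 2909 at a q-value limit (−log10) of 5 and 3454 without the exclusion. It ranged from 3301 to 3343 when each of the 4 short lists was left out. Control 1 and Bmal1 CKO 2 cannot be left out, since both define the set.

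The share at a gene end was 63.6% and 82.0% with windows of 500 and 2500 bp, 78.8% from the peak interval, and 62.5% and 81.3% at minimum widths of 500 and 1000 bp. It ranged from 74.5% to 75.4% without each short list. The same 5 alternatives gave 7.81%, 14.8%, 11.2%, 7.25% and 14.3% for the narrower pairs, and the q-value limit gave 16.3%, with 10.5% without each short list. The share at a listed start (alternatives chosen after seeing the data) was 65.6%, 74.4%, 58.9% and 78.9% with windows of 500 and 2500 bp and widths of 500 and 1000 bp. For the narrower pairs it was 7.12%, 10.3%, 5.58% and 12.3%, and 13.8% at the q-value limit. The wide peaks had the higher share under each of these alternatives.

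The share inside genes was 27.4%, 10.1% and 14.3% with windows of 500 and 2500 bp and with all genes of the table, and the share outside genes 4.79% with all genes. The share with a wide neighbour was 3.64% within 10 kb and 36.8% within 100 kb, and 39.7% and 3.83% at minimum widths of 500 and 1000 bp. Among narrower pairs these were 44.6%, 98.2%, 87.7% and 92.7%. The planned even thinning of the narrower pairs spaces them by construction (0% within 50 kb) and was not used as a comparison. Depth differed between both lists (3.46 and 5.83 background fragments per base), and its part in the widths was not tested.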

Other observations

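Some wide shared peaks covered microRNA genes. The Control 1 interval overlapped 16 annotated hairpins, each in a peak of its own, with widths of 785 to 1698 bp in Control 1 and 726 to 1508 bp in Bmal1 CKO 2. The share of all annotated hairpins and the number under narrower peaks are not given here. The count is therefore no measure of preference for microRNA genes. The peak over Mir484 (chr16:14158858-14159726) measured 869 and 847 bp and was 1 of the few with a higher fold in Bmal1 CKO 2, at 4.49 against 3.49 in Control 1. The peak over Mir423 (chr11:77077856-77078640) measured 785 and 844 bp, with folds of 5.41 and 3.17. Its summit also lay 15 bp from an end of the protein-coding gene Nsrp1. Mir8092 (chr19:40893832-40895529) lay in the widest of these peaks, with 1698 and 1508 bp.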
